A study of Mus musculus with 5 samples.

Results

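The 7 genes described here are S100a4, S100a6, S100a10 and S100a11, which encode small calcium-binding proteins of the S100 family, Lgals1 and Lgals3, which encode galectin-1 and galectin-3, and Vim, which encodes the intermediate filament protein vimentin. They were taken by name, 7 of the 31253 features listed for 4 single-cell libraries, and their levels were read in gated T cells, group 1 innate lymphoid cells (ILC1s), NK cells, ILC2s and ILC3s of each library. The genes were chosen by their measured levels in these classes and libraries, so the values below describe them and test nothing. All 7 had UMIs (unique molecular identifiers, one per captured transcript) in each library.

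The libraries came from male mice aged 8 to 10 weeks. In unilateral ureteral obstruction (UUO), a kidney injury model, the left ureter was tied and cut, and in sham surgery it was only exposed, both under pentobarbital anaesthesia. The 2 kidney groups were wild type 14 days after UUO and strain B6.Cg-Pdcd1tm1.1Shr/J, labelled PD-1 KO, 3 days after UUO. The 2 small intestine groups were both wild type, one after sham surgery and one 3 days after UUO. The sham group has no listed day after surgery, so time after surgery may also differ between the intestinal groups. No wild-type background strain is named. Cells were isolated by flow sorting, kidney cells as innate lymphoid cells and intestinal cells as ILC3s, per the labels, but the protocol in the labels describes pulmonary artery digestion, which matches neither organ. Each group was 1 library with an unstated number of mice, so no difference could be tested and the intervals below (95%) cover counting error only. Counts of wild-type kidney 3 days after UUO were not analysed here. The 2 kidney libraries therefore differ in genotype and in day after surgery, which cannot be told apart.

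S100 proteins bind calcium and then dock on target proteins such as annexins and myosin. S100a10 is an exception that no longer binds calcium and forms a complex with annexin A2 (Anxa2). Galectins bind galactose-containing sugars on glycoproteins, inside and outside the cell, and vimentin filaments give migrating leukocytes part of their mechanical stiffness. In T cells, transcripts of S100a4, S100a6, Lgals1 and Vim are known as companions of the effector and memory state.

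The S100 genes sit in 2 neighbouring pairs on chromosome 3 (GRCm38, GENCODE M21, all on the plus strand and all protein-coding). S100a4 spans chr3:90603771-90606045 and S100a6 chr3:90612882-90624181, with 6836 bases between them. S100a11 spans chr3:93520488-93526287 and S100a10 chr3:93555080-93564643, with 28792 bases between them. Lgals1 lies at chr15:78926725-78930465, Lgals3 at chr14:47367751-47386160 and Vim at chr2:13573927-13582826. The 250 bases upstream of the RefSeq start (GRCm38.p6, plus strand, 5′ to 3′) are shown for S100a4, S100a6 and S100a11. S100a4 and S100a6 had the highest correlation of levels among the 7 genes over all 13 points of class and library. Without the intestinal T and ILC1 gates they did not. The S100a11 window held the most motif matches of the genes with a window in the table. The windows shown cover chr3:90603520-90603769, chr3:90612644-90612893 and chr3:93520246-93520495. Capitals mark TATA boxes (TATAAA) and AP-1 motifs (TGAGTCA).
S100a4: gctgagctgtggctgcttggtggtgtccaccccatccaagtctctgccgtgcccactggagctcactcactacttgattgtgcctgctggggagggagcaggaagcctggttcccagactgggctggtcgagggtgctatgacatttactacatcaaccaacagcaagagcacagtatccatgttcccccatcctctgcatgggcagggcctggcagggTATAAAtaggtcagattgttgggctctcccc
S100a6: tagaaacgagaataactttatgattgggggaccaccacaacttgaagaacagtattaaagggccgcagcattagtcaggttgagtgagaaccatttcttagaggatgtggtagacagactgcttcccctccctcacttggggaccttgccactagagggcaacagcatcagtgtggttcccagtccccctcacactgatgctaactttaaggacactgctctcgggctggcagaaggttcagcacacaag
S100a11: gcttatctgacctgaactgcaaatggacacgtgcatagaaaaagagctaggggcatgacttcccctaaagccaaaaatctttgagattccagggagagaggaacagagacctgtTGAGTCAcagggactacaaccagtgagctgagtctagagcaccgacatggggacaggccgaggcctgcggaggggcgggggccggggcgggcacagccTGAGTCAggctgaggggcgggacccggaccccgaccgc

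The windows differed in the 4 motifs searched, each on both strands. The motifs of AP-1 and of the TATA box are those given above. The GC box was read as GGGCGG wherever it stood in the window. The E-box was read in its palindromic form, CACGTG, in the same way. S100a4 held 1 TATA box, starting at base 220 of the window, and none of the others. S100a11 held 2 AP-1 motifs, at bases 115 and 213, with 3 GC boxes and 1 E-box, and S100a6 held none of the 4 motifs. Of the other genes with an upstream window in the table, Vim held 1 TATA box and Lgals3 1 GC box. No match overlapped a match of another motif. Among 32851 mouse windows of the same length, AP-1 occurred in 4.46%, the TATA box in 12.4%, the GC box in 32.7% and the E-box in 6.02%.

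After filtering, 5212, 6960, 3501 and 4946 cells were kept in wild-type kidney, PD-1 KO-labelled kidney, sham intestine and UUO intestine, with medians of 1824 to 2177 UMIs per cell. Cells were gated on UMIs of class genes that include none of the 7. Although labelled innate lymphoid cells, 58.4% of wild-type and 58.7% of PD-1 KO-labelled kidney cells fell in the T gate. The kidney gates held 3043 and 4085 T cells, 458 and 560 ILC1s, 249 and 237 NK cells, and 478 and 526 ILC2s, in that order of libraries. In the intestine, 2675 sham and 3432 UUO cells were ILC3s, and the T and ILC1 gates there held 35 to 61 cells. Between 474 and 776 of the kidney T cells per library sat exactly at the lower limit of 2 CD3 UMIs. The 2 intestinal libraries shared 158 cell barcodes, 21 and 20 of them on ILC3s, and the other pairs that could be compared shared 22 to 27. Pdcd1, the gene deleted per the label, was at 127 CPM (UMIs of the gene scaled to the usual fixed total of UMIs for the class or library) in wild-type and 190 CPM in PD-1 KO-labelled kidney, so its level did not go with the label, and counts per gene do not show which exons were read.

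Markers other than the gate genes were read in each kidney class. All 7 T markers checked (Cd5, Cd6, Lat, Trac, Trbc2, Cd28 and Bcl11b) had UMIs in kidney T cells, with sums of 5493 and 5951 CPM, against 822 to 1509 CPM in ILC1s, NK cells and ILC2s. The 7 ILC1 and NK markers summed to 7396 and 6154 CPM in ILC1s and to 9292 and 8670 CPM in NK cells, against 2195 and 3473 CPM in T cells and 730 and 1257 CPM in ILC2s. In ILC1s, Il2rb was at 4220 and 3544 CPM and the factor Tbx21 at 154 and 135 CPM, while the T markers summed to 1163 and 1509 CPM. NK cells carried the cytotoxic genes Prf1 at 473 and 470 CPM and Nkg7 at 2065 and 1888 CPM, and ILC2s the growth factor gene Areg at 979 and 906 CPM. The mast cell markers Cpa3, Mcpt4 and Tpsb2 summed to 242 and 162 CPM in ILC2s, against at most 7.34 CPM in T cells, ILC1s and NK cells. The part of mast cells in the ILC2 levels was not tested. Intestinal ILC3s carried the stem cell factor receptor gene Kit at 1434 and 1476 CPM, with Cd5 at 0 and 1 UMI. The small intestinal T and ILC1 gates had mixed markers. Their T gate had a median of 7 and 10 CD3 UMIs per cell and T marker sums of 3011 and 2492 CPM. It had 0 and 2 UMIs of Cd5 with Gzmb at 4371 and 8521 CPM, and which kinds of T cell these were was not tested. The ILC1 gate there held Kit at 1071 and 853 CPM. Both gates were small, are called by their gate here and take no part in the comparisons between libraries.

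In kidney, T cells held more of 5 of the 7 genes than ILC1s, NK cells and ILC2s did, in both libraries. S100a4, S100a6, S100a11, Lgals3 and Vim were highest in T cells in wild-type and PD-1 KO-labelled kidney alike. S100a4, which binds non-muscle myosin, was at 564 CPM [545, 583] in wild-type T cells, 312 CPM in ILC1s, 264 CPM in ILC2s and 79 CPM in NK cells. In the PD-1 KO-labelled library it was at 989 CPM [969, 1010] in T cells, 588 CPM in ILC2s, 522 CPM in ILC1s and 184 CPM in NK cells. T cells were thus first and NK cells last for S100a4 in both, while the intervals of ILC1s and ILC2s overlapped. Of wild-type cells thinned to 1000 UMIs each, 35.3% of T cells had an S100a4 UMI, against 7.20% of NK cells.

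S100a6, a neighbour of S100a4 that also binds annexins, was lower in the innate classes as well. It was at 775 CPM in wild-type T cells, 395 CPM in ILC1s, 201 CPM in NK cells and 154 CPM in ILC2s. The PD-1 KO-labelled library gave 927, 443, 286 and 252 CPM for the same classes. Both libraries had the same order, and only NK cells and ILC2s had overlapping intervals.

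S100a11, known from membrane repair and from binding annexin A1, had the same order of classes in both libraries with no overlap between neighbours. It was at 747 and 653 CPM in T cells, 579 and 589 CPM in ILC1s, 415 and 466 CPM in NK cells, and 294 and 297 CPM in ILC2s. Its ILC1 level was 77.5% and 90.2% of the T cell level, where that of S100a6 was 51.0% and 47.8%. S100a10 was the S100 gene whose leading class differed between libraries. T cells led in wild-type kidney at 853 CPM [829, 877], ahead of ILC1s at 708 CPM, NK cells at 594 CPM and ILC2s at 462 CPM. ILC1s led in the PD-1 KO-labelled kidney at 860 CPM [810, 913], ahead of NK cells at 580 CPM, T cells at 562 CPM and ILC2s at 367 CPM.

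The galectins differed mainly in NK cells. Lgals1 was as high or higher in NK cells than in T cells, at 479 CPM [420, 545] against 364 CPM [349, 380] in wild-type kidney, and at 541 CPM [480, 607] against 522 CPM [507, 537] in the PD-1 KO-labelled kidney, where the intervals overlapped. ILC1s followed at 151 and 281 CPM, and ILC2s were lowest at 70 and 170 CPM. Lgals3 was highest over the whole T gate among the kidney classes compared, at 105 and 137 CPM. It lay between 17 and 31 CPM in ILC1s, NK cells and ILC2s of both libraries. Vim was spread more evenly. It was at 653 and 768 CPM in T cells, 475 and 613 CPM in NK cells, 460 and 411 CPM in ILC2s, and 372 and 355 CPM in ILC1s.

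**Figure D1:**
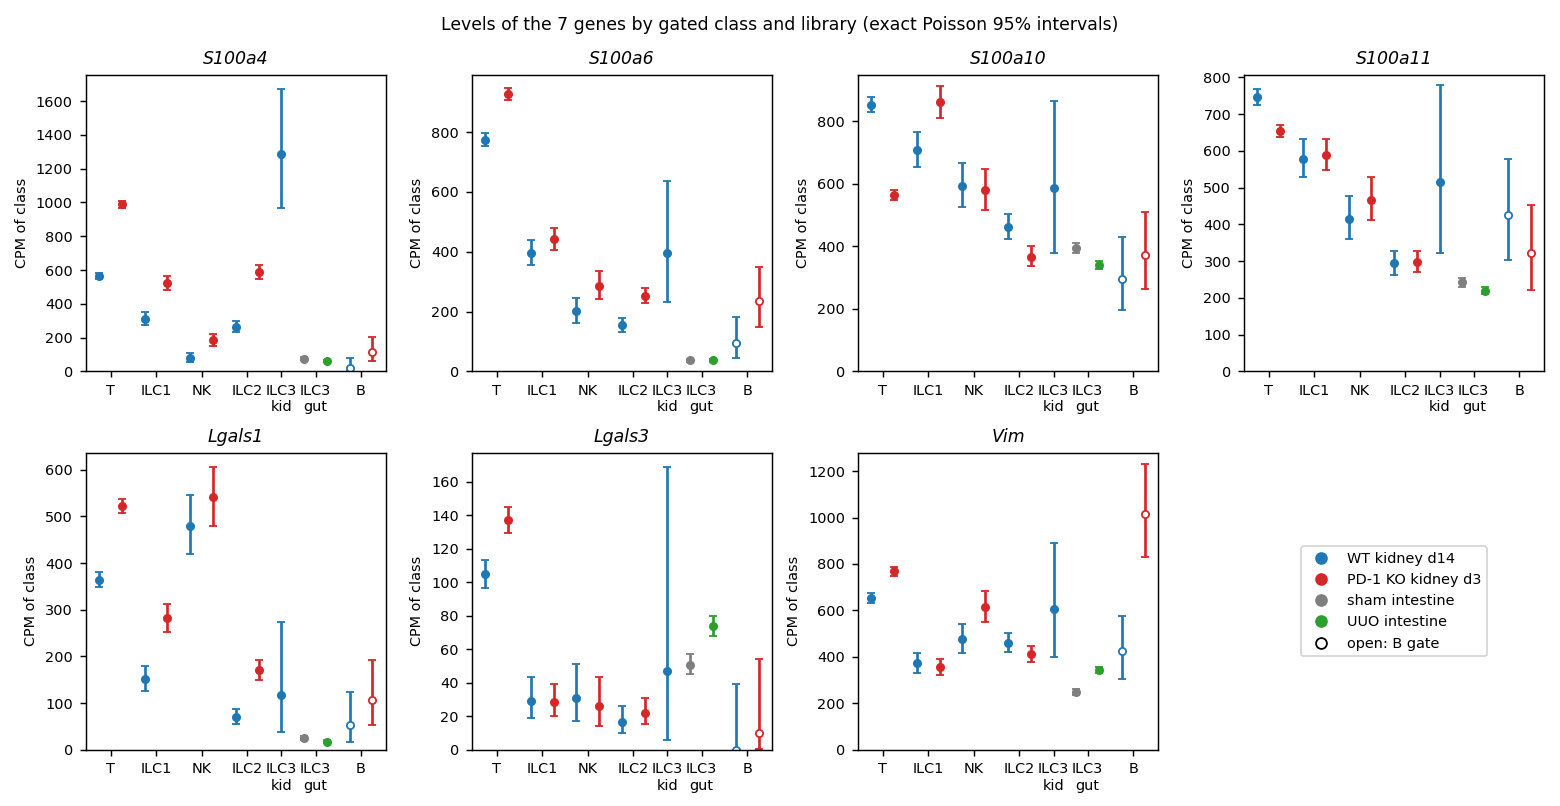
Levels of the 7 genes as CPM of each gated class, 1 panel per gene with its own axis from 0, with exact Poisson intervals. T cells lie highest for S100a4, S100a6, S100a11, Lgals3 and Vim among the 4 compared kidney classes, and intestinal (gut) ILC3s lie lowest or near lowest for S100a4, S100a6 and Lgals1. Kidney (kid) ILC3s are 20 cells of wild-type kidney, and open circles are B cells.

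Free RNA from lysed cells can put T cell transcripts into the wells of other cells. In the ILC1, NK and ILC2 gates, Cd5 was at 0.576 to 4.0% of its T cell level and Trac at 4.31 to 13.1%, while S100a4 was at 14.0 to 59.4%. Kidney B cells (66 and 55 cells, median 1338.5 and 1618 UMIs) served as a class outside the comparison. S100a4 had 2 and 12 UMIs in B cells, or 21 and 117 CPM, beside Trac at 3 and 18 UMIs and Cd5 at 0 and 4 UMIs. S100a6 was at 95 and 234 CPM there, Lgals1 at 53 and 107 CPM and Lgals3 at 0 and 1 UMI. After thinning, 3.85% [0.469, 13.2] and 7.69% [2.14, 18.5] of B cells had an S100a4 UMI, and the NK shares of 7.20% [4.25, 11.3] and 13.5% [9.34, 18.6] overlapped these. The part of free RNA in the NK level of S100a4 was not tested. S100a10, S100a11 and Vim were at 297 to 1014 CPM in B cells, so these transcripts were not particular to T cells or innate lymphoid cells.

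Intestinal ILC3s held little of S100a4, S100a6 and Lgals1. S100a4 was at 76 and 61 CPM in sham and UUO intestine, S100a6 at 37 CPM in both, and Lgals1 at 25 and 17 CPM. S100a10 was at 393 and 340 CPM, S100a11 at 242 and 220 CPM, Vim at 248 and 344 CPM, and Lgals3 at 51 and 74 CPM. Lgals3 was the exception in the order of classes, since its ILC3 level lay above that of ILC1s, NK cells and ILC2s in kidney, although the intervals of sham ILC3s and wild-type NK cells overlapped. Organ, sort and library differ together between these classes and cannot be told apart. Cells gated as epithelium in these intestinal libraries held Lgals3 at 560 and 863 CPM, and epithelial markers summed to 353 and 1002 CPM in the ILC3 gate. The part of epithelial RNA in the ILC3 level of Lgals3 was not tested.

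Counted per cell, T cells again held the most of the 7 genes and intestinal ILC3s the fewest of the classes compared. With each cell thinned to 1000 UMIs, T cells had a UMI of 2.58 and 2.84 of the 7 genes on average, ILC1s of 1.65 and 1.96, NK cells of 1.67 and 1.77, and ILC2s of 1.25 and 1.49, in wild-type and PD-1 KO-labelled kidney. Intestinal ILC3s had 0.826 in sham and 0.803 in UUO intestine, below the 1.08 and 1.25 of kidney B cells. At least 4 of the 7 genes were seen in 26.9% [25.3, 28.5] and 32.7% [31.2, 34.2] of kidney T cells. The share was 7.05 and 12.3% in ILC1s, 8.05 and 9.57% in NK cells, 3.02 and 6.87% in ILC2s, and 0.542 and 0.249% in intestinal ILC3s. Within T cells, detection of one gene went only slightly with that of another. An S100a6 UMI was seen in 55.6% of wild-type T cells with an S100a4 UMI and in 40.3% without one, and in 58.3 and 45.4% in the PD-1 KO-labelled library, with Spearman correlations of 0.168 and 0.159 across cells, too weak in such sparse counts to read as a finding.

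**Figure D2:**
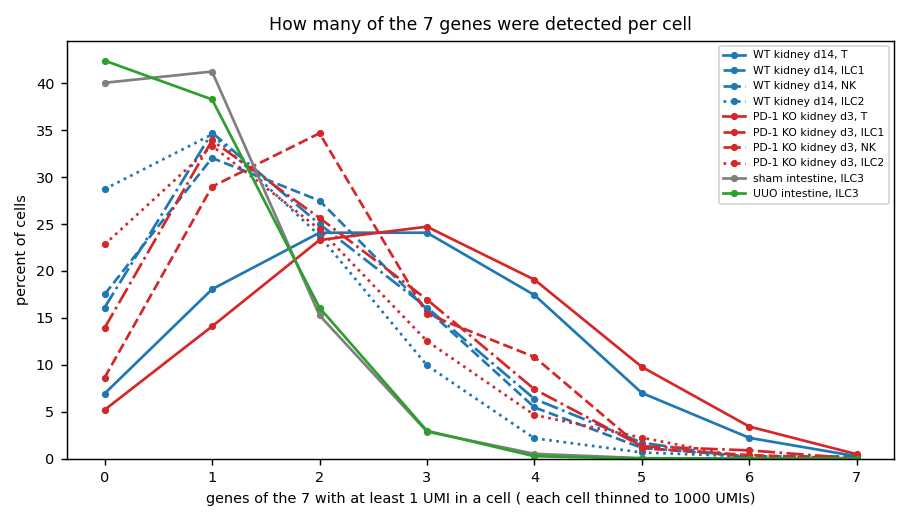
Share of cells (percent) by how many of the 7 genes had a UMI after thinning each cell to 1000 UMIs, 1 line per class and library. T cells peak at 2 or 3 genes, ILC2s at 1, and intestinal ILC3s at 0 or 1.

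The T gate of the 2 kidney libraries did not hold the same T cells. Cells with a Cd8a or Cd8b1 UMI and no Cd4 made up 23.6% of it in wild-type and 66.5% in PD-1 KO-labelled kidney, CD4 cells (a Cd4 UMI and none of Cd8a, Cd8b1 or Foxp3) 487 of 3043 and 312 of 4085 cells, and Foxp3 cells 159 and 25. The genes were therefore also read in sub-gates of T cells, which may share cells and do not cover the whole gate. Cycling cells, with at least 3 UMIs of Mki67, Top2a, Pclaf and Stmn1, were 55 in wild-type and 98 in PD-1 KO-labelled kidney.

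Foxp3 cells, the regulatory T cells, carried the most S100a10 of these sub-gates, at 1515 CPM [1380, 1659] in wild-type and 1363 CPM [1067, 1717] in PD-1 KO-labelled kidney, where CD8, CD4 and cycling cells lay between 501 and 957 CPM. S100a11 was at 1138 CPM [1022, 1265] in wild-type Foxp3 cells, against 557 to 631 CPM in the other sub-gates, and at 720 CPM [509, 988] in the PD-1 KO-labelled library, where the intervals overlapped.

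The CD8 and CD4 sub-gates differed in S100a6 and Vim in both libraries. S100a6 was at 845 CPM [796, 895] in CD8 and 497 CPM [453, 543] in CD4 cells of wild-type kidney, and at 1021 CPM [995, 1048] and 619 CPM [563, 680] in the PD-1 KO-labelled kidney. Vim went the other way, at 637 CPM in CD8 and 849 CPM in CD4 cells of wild-type kidney and at 723 and 1203 CPM in the PD-1 KO-labelled kidney. CD8 cells thus held more S100a6 and CD4 cells more Vim in both libraries. S100a4 was level between them in wild-type kidney, at 480 CPM [443, 518] and 484 CPM [441, 530], and lower in CD8 cells of the PD-1 KO-labelled kidney, at 964 CPM [939, 990] against 1124 CPM [1048, 1205]. Cycling T cells had Vim at 1246 and 1223 CPM, Lgals1 at 642 and 726 CPM, and S100a4 at 790 and 1111 CPM. Lgals3 in wild-type kidney was at 114 CPM [97, 133] in CD8, 53 CPM [39, 70] in CD4 and 36 CPM [18, 64] in Foxp3 cells. The CD4 and Foxp3 intervals overlapped that of wild-type NK cells, at 31 CPM [17, 51]. In the PD-1 KO-labelled kidney it was at 138 CPM in CD8, 133 CPM in CD4 and 95 CPM [31, 221] in Foxp3 cells.

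**Figure D3:**
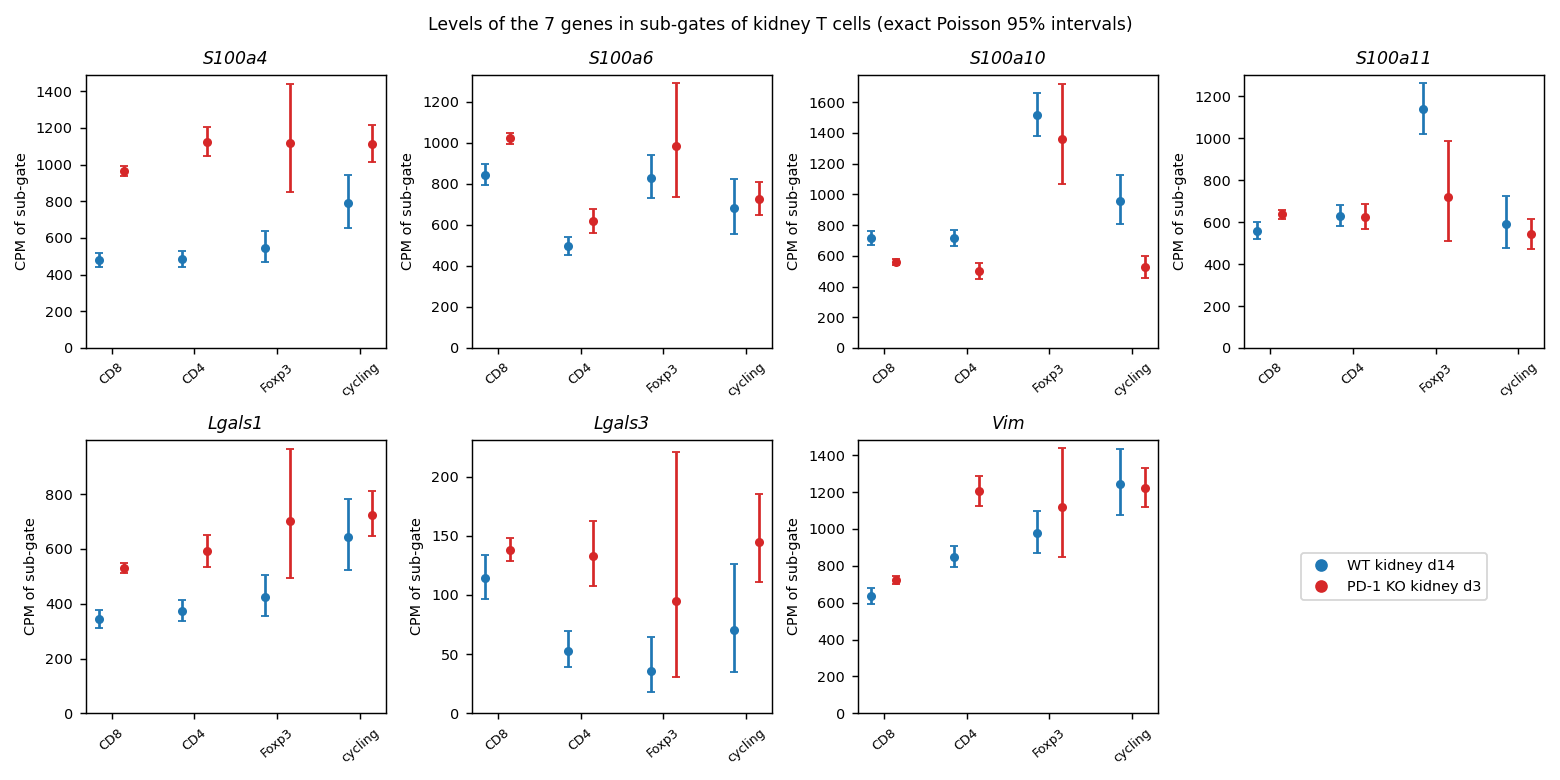
Levels of the 7 genes as CPM in 4 sub-gates of kidney T cells, with exact Poisson intervals, wild-type library in blue and PD-1 KO-labelled library in red. S100a4 is higher in the PD-1 KO-labelled library in each sub-gate drawn, S100a10 is highest in Foxp3 cells, and S100a6 is higher in CD8 than in CD4 cells.

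Between the kidney libraries, S100a4 was the gene that differed in the same direction in all 4 classes by at least 1.5-fold. It was higher in the PD-1 KO-labelled library by a log2 ratio of 0.81 [0.75, 0.87] in T cells, 0.74 [0.54, 0.95] in ILC1s, 1.22 [0.67, 1.8] in NK cells and 1.15 [0.96, 1.35] in ILC2s. In the 4 T cell sub-gates the log2 ratio was above 0 each time, at 0.49 in cycling, 1.01 in CD8, 1.03 in Foxp3 and 1.22 in CD4 cells. The direction was thus present in these sub-gates as well as over the gate. Most T cells of the wild-type gate lay in none of the sub-gates and were not read apart. B cells, with 2 and 12 S100a4 UMIs, had more in the same library, and the sum of T markers in B cells was 170 CPM in wild-type and 663 CPM in PD-1 KO-labelled kidney. The part of free RNA in the S100a4 ratios was not tested. In cells without a Trac UMI, chosen after the data were seen, the log2 ratio was 0.54 in ILC1s, which is under 1.5-fold, 1.22 in NK cells and 1.10 in ILC2s.

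In T cells, 1 of the 7 genes was at least 1.5-fold higher in the PD-1 KO-labelled library, S100a4, where 4.4% of 4001 features were. A further 1, S100a10, was at least 1.5-fold lower, where 7.42% of features were. S100a10 passed that limit narrowly, at 562 against 853 CPM, a log2 ratio of -0.60 [-0.66, -0.54], and did not pass it with TMM or median-of-ratios scaling or within CD8 or CD4 cells. Its ratio was below 0 in the 4 sub-gates, from -0.87 in cycling cells to -0.15 [-0.53, 0.21] in Foxp3 cells, where the interval includes 0. Lgals1 was higher by 0.52 [0.44, 0.59], Lgals3 by 0.39 [0.25, 0.53], S100a6 by 0.26 [0.21, 0.31] and Vim by 0.23 [0.18, 0.29]. S100a11 was at -0.19 [-0.25, -0.14] over the gate but at 0.19 [0.08, 0.31] in CD8 cells, so its direction depended on which T cells were taken. The median of the 7 log2 ratios was 0.26, beside -0.04 over all features.

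In ILC2s, the tissue-resident producers of type 2 cytokines, 3 genes were at least 1.5-fold higher in the PD-1 KO-labelled library, of 6 that passed the level filter, where 5.04% of 3671 features were. None was lower, where 3.43% were. S100a4 was at 588 against 264 CPM, Lgals1 at 170 against 70 CPM with a log2 ratio of 1.28 [0.91, 1.66], and S100a6 at 252 against 154 CPM with a ratio of 0.72 [0.45, 0.98]. S100a10 was lower by -0.33 [-0.51, -0.16], and S100a11 and Vim had intervals that included 0. The split by Il5 and Il13 UMIs kept the directions of S100a4, S100a6, Lgals1 and S100a10, but not those of S100a11 and Vim. Vim was at -0.23 [-0.43, -0.02] without such UMIs and at 0.29 [-0.21, 0.82] with at least 2, and S100a11 at 0.14 and -0.14. S100a4 had ratios of 1.02 in ILC2s without and 1.23 in ILC2s with at least 2 such UMIs, and Lgals1 had 1.37 and 1.11. Cytotoxic transcripts moved with the library in this gate, Gzmb from 14 CPM in wild-type to 223 CPM in PD-1 KO-labelled and Nkg7 from 37 to 161 CPM, while the sum of T markers was 1022 and 1234 CPM. Their part in the result was not tested.

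In ILC1s, 2 of the 6 genes tested were at least 1.5-fold higher in the PD-1 KO-labelled library, where 4.25% of 3809 features were, and none lower, where 5.3% were. They were S100a4, at 522 against 312 CPM, and Lgals1, at 281 against 151 CPM with a log2 ratio of 0.89 [0.60, 1.20]. S100a10 was higher as well, by 0.28 [0.14, 0.43], in contrast to T cells and ILC2s. For S100a6, S100a11 and Vim the interval of the ratio included 0. The T marker sum in this gate was 1163 CPM in wild-type and 1509 CPM in PD-1 KO-labelled kidney.

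In NK cells, 1 of 6 genes was at least 1.5-fold higher, where 3.69% of 2033 features were, and none lower, where 4.13% were. This was S100a4, at 184 against 79 CPM from 99 and 38 UMIs. S100a6 had a ratio of 0.51 [0.13, 0.89] and Vim of 0.37 [0.12, 0.62]. Lgals1, whose level was high in NK cells of both libraries, differed little, by 0.17 [-0.08, 0.43], and S100a10 by -0.03 [-0.27, 0.20]. Lgals3 was under the level filter in all 3 innate classes, with 14 to 36 UMIs per class and library. The medians over all features that passed the filter were -0.04 in ILC1s, -0.02 in NK cells and 0.00 in ILC2s. Over all 7 genes, Lgals3 included, they were 0.16, 0.17 and 0.41. The ILC2 value of 0.41 was the ratio of Lgals3 itself, with an interval of [-0.44, 1.31] from 33 and 19 UMIs.

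**Figure D4:**
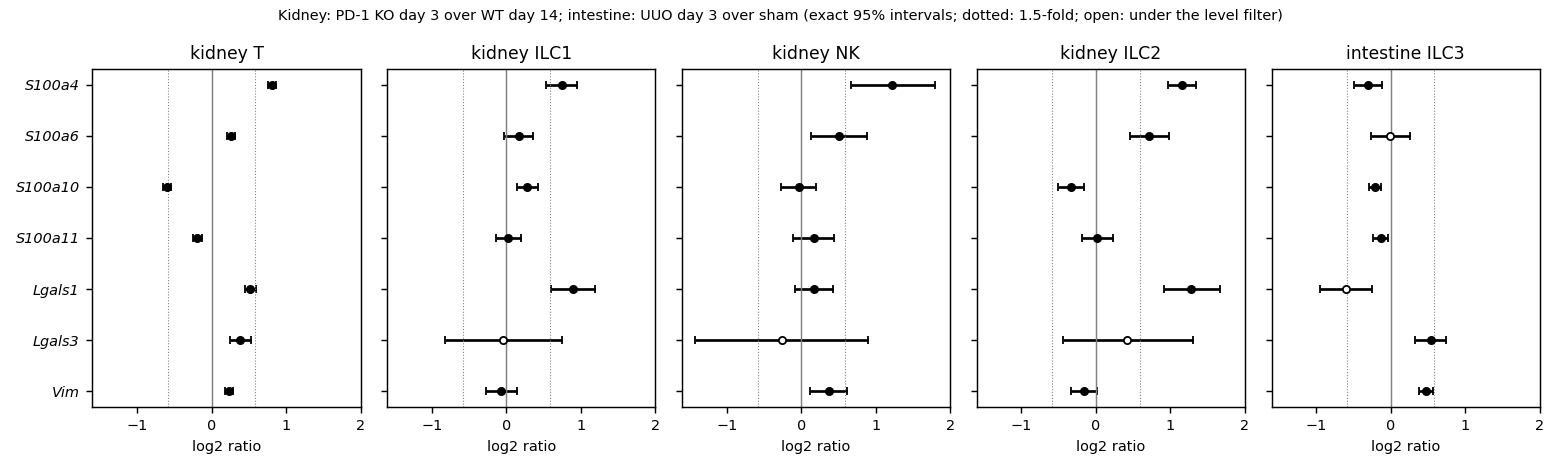
Log2 ratios of the 7 genes between libraries within a class, with exact conditional binomial intervals and dotted lines at 1.5-fold, where open circles did not pass the level filter. S100a4 lies to the right of the 1.5-fold line in all 4 kidney classes, and S100a10 lies left of 0 in T cells and ILC2s and right of 0 in ILC1s.

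In intestinal ILC3s, none of the 5 genes that passed the filter differed by 1.5-fold between UUO and sham, where 1.21% of 3879 features were higher and 0.387% lower. The 2 genes above 0 were Lgals3, at 74 against 51 CPM with a log2 ratio of 0.53 [0.33, 0.74], and Vim, at 344 against 248 CPM with a ratio of 0.47 [0.38, 0.57]. The 95th percentile of all features was 0.29. S100a4 was lower by -0.31 [-0.50, -0.12], S100a10 by -0.21 [-0.29, -0.13] and S100a11 by -0.14 [-0.24, -0.03]. S100a6 had the same level in both, with a ratio of -0.01 [-0.27, 0.26]. Lgals1, under the level filter, had a ratio of -0.60 [-0.95, -0.25] from 129 and 145 UMIs.

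Epithelial transcripts in the ILC3 gate were also higher in the UUO library. The sum of 5 epithelial markers (Cdh1, Fabp1, Fabp2, Apoa1 and Vil1, all with UMIs) in ILC3s was 353 CPM in sham and 1002 CPM in UUO intestine. Cells gated as epithelium held Lgals3 at 560 and 863 CPM and Vim at 156 and 56 CPM. A subset chosen after the data were seen was the ILC3s with no UMI of Fabp1, Fabp2 or Apoa1. It kept 1481 of 2675 sham and 548 of 3432 UUO cells, unequal parts of the 2 libraries. In it the ratio of Lgals3 was 0.61 and that of Vim 0.50, beside 0.53 and 0.47 over the whole gate. Lgals3 then passed the 1.5-fold limit. The part of epithelial RNA in these ratios was not tested. Lgals1, under the level filter over the whole gate, was at -1.88 in this subset, with no interval taken. This was the lowest of 13 alternatives, which ranged up to -0.30.

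The ILC3 subsets differed more than the libraries did for some of the genes. ILC3s are commonly divided into a lymphoid tissue inducer-like type with the chemokine receptor Ccr6 and a type with the natural cytotoxicity receptor Ncr1. Here the Ccr6 type had a UMI of Ccr6, Cd4 or Nrp1 and none of Ncr1, Ccr9 or Tbx21. The Ncr1 or Ccr9 type had the reverse. The Ccr6 type made up 34.7% of sham and 37.2% of UUO ILC3s, and the Ncr1 or Ccr9 type 15.5% and 15.3%. The remaining ILC3s lay in neither sub-gate. Lgals1 was at 61 CPM in Ncr1 or Ccr9 ILC3s and 10 CPM in Ccr6-type ILC3s of sham intestine, and at 49 and 5 CPM in UUO intestine. The log2 ratios were 2.63 [1.88, 3.44] and 3.37 [2.53, 4.32], from 14 to 70 UMIs a subset. S100a4 went the other way, lower in the Ncr1 or Ccr9 type by -0.50 [-0.93, -0.09] and -1.15 [-1.62, -0.70]. S100a10 was higher in that type by 0.28 and 0.31, and S100a11 by 0.49 and 0.36.

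UUO and sham differed unevenly over these subsets. Lgals3 had a UUO ratio of 0.72 [0.35, 1.10] in the Ccr6 type, from 42 to 69 CPM, and of 0.03 [-0.37, 0.44] in the Ncr1 or Ccr9 type, where it was at 87 and 89 CPM. Vim was higher after UUO in both, by 0.54 [0.39, 0.69] and 0.33 [0.12, 0.54]. S100a4 was lower in the Ncr1 or Ccr9 type, by -0.88 [-1.44, -0.33], and at -0.23 [-0.52, 0.05] in the Ccr6 type. The difference between subsets in these ratios was not tested.

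**Figure D5:**
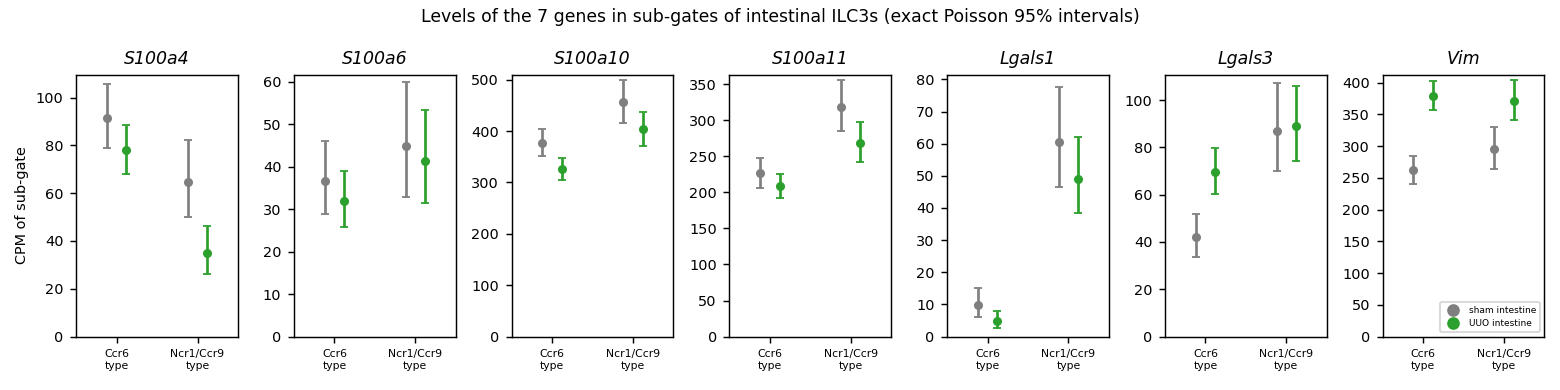
Levels of the 7 genes as CPM in 2 sub-gates of intestinal ILC3s, with exact Poisson intervals, sham in grey and UUO in green. Lgals1 is near 0 in the Ccr6 type and at 49 to 61 CPM in the Ncr1 or Ccr9 type, and Lgals3 differs between sham and UUO in the Ccr6 type.

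The ILC3 gate in kidney was small and is described after its values were seen. It held 20 cells in wild-type kidney, 10 of them at the lower limit of 2 UMIs of ILC3 genes, and 6 in PD-1 KO-labelled kidney. S100a4 had 55 UMIs in the 20 wild-type cells, in 16 of them, which gives 1286 CPM [969, 1674], against 76 and 61 CPM in intestinal ILC3s, a 17-fold and 21-fold difference. S100a6 was at 398 CPM, 10.8-fold sham ILC3s, from 17 UMIs, and Vim at 608 CPM. Lgals1 had 5 UMIs and Lgals3 had 2. These UMIs were concentrated in few cells, with 28 of the 55 S100a4 UMIs, 12 of the 17 S100a6 UMIs and 16 of the 26 Vim UMIs in the 3 highest cells for each gene. The 6 PD-1 KO-labelled cells had 50 S100a4 UMIs, 27 of them in 1 cell, and 44 Vim UMIs. Beside Kit, with 15 UMIs in 8 cells, and Tmem176b, with 97 in 14, the wild-type cells carried the antigen presentation genes Cd74, with 340 UMIs in 13 cells, and H2-Aa, with 205 in 13, and the T cell genes Trac, with 10 UMIs in 6, and Trbc2, with 20 in 10. Clusters formed without the 7 genes put 1 kidney cell among ILC3s. The part of other cell types in these levels was not tested.

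Other genes of the same families, and their partners, differed between the kidney libraries in both directions. The lists below were chosen with earlier results of these data known. Of 16 S100 family genes, 5 passed the filter in T cells, the 4 above and S100a13, which was at 135 against 165 CPM with a log2 ratio of -0.29 [-0.41, -0.17]. Among galectins, Lgals3bp, which encodes a galectin-3 binding protein, was lower in T cells by -0.29 and Lgals9 was higher in ILC2s by 0.37 [0.10, 0.65] and in NK cells by 0.57 [0.11, 1.04]. None of these reached 1.5-fold.

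Of the annexins and other S100 partners, 3 of 9 tested were at least 1.5-fold higher in ILC2s of the PD-1 KO-labelled library, where 5.04% of features were, and none lower. Anxa2, the partner of S100a10, was at 71 against 23 CPM, a ratio of 1.63 [1.0, 2.31], while S100a10 itself was lower there. Anxa6 was higher by 0.62 [0.44, 0.81] and Anxa5 by 0.59 [0.22, 0.97]. In T cells 1 of 9 was higher, Anxa6, by 0.79 [0.73, 0.85], where 4.4% of features were. In NK cells 1 of 6 was higher, again Anxa6, by 0.64 [0.41, 0.87], where 3.69% of features were. In ILC1s none of 10 passed in either direction, where 4.25% of features were higher and 5.3% lower, with Anxa6 at 0.54 [0.38, 0.70].

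Of the cytoskeletal genes, 1 of 19 was higher in T cells, the actin crosslinker Flna by 0.66, and 1 lower, the actin capping gene Capg by -1.06. In ILC2s 2 of 19 were higher, Plec by 0.67 and Lmnb1 by 0.65. In ILC1s 1 of 18 was higher, Lmna by 0.84, and in NK cells 1 of 16, Flna by 0.68. Counts of 1 or 2 in lists of this size lie near the shares over all features, which were 3.69% to 5.04% higher and 3.43% to 7.42% lower in the 4 classes, and are not a result about the list. Vim passed in none of the 4 classes.

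Of the effector and memory companions tested in T cells, 6 of 15 were at least 1.5-fold lower in the PD-1 KO-labelled library and 1, the integrin gene Itgb1, named after its values were seen, was higher, by 0.81. Over all features in T cells, 7.42% were lower and 4.4% higher. The residency genes Itgae and Cxcr6 were lower by -1.40 and -0.91, the chemokine receptor gene Ccr2 by -1.28 and the transcription factor gene Maf by -1.04. In ILC2s, 2 of 14 were higher, Crip1 by 0.78 and Itgb1 by 0.67, where 5.04% of features were, and 3 were lower, Ccr2 by -0.77, Maf by -0.73 and Ifngr1 by -0.59, where 3.43% of features were. In ILC1s, 2 of 13 were lower, Ccr2 by -0.92 and Itgb7 by -0.69, beside 5.3% of features, and none was higher. In NK cells none of 12 passed in either direction, beside 3.69% of features higher and 4.13% lower.

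In intestinal ILC3s, 1 gene of these lists passed 1.5-fold between UUO and sham, the effector and memory companion Crip1, higher after UUO by 0.59 [0.46, 0.72] and 1 of 11 in its list, where 1.21% of features were higher. Cxcr6 was lower by -0.57 [-0.63, -0.51]. Beside Vim, the nuclear filament gene Lmna was higher by 0.44 [0.39, 0.50]. Anxa4 was higher by 0.43 and Anxa2 by 0.39, with Ahnak at 0.31 and a median of 0.21 over the 9 partners tested. Lgals4, an epithelial galectin, was higher by 0.34, and the median over the 4 galectins tested was 0.28. Over all features the median was 0.00 and the 95th percentile 0.29. The sum of epithelial markers in this gate was also higher in the UUO library, and the part of epithelial RNA in these list ratios was not tested.

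Levels were correlated across 13 points of class and library, which share libraries and so are not independent. Of these points, 3 are the small intestinal T and ILC1 gates, whose markers were mixed. S100a4 and S100a6 had a Pearson correlation of 0.91 in log2(CPM + 10), and S100a6 and Lgals1 of 0.88. Lgals3 was negatively correlated with each of the other 6, from -0.49 with S100a4 to -0.02 with S100a11. The other 10 points were an alternative chosen after the data were seen. Over them, S100a4 and S100a6 had a correlation of 0.86 and S100a6 and Lgals1 of 0.85. S100a6 and S100a11 were highest there at 0.93, followed by S100a10 and S100a11 at 0.91. The leading pair thus changed without the 3 gates. Lgals3 was there positively correlated with each of the other 6, from 0.06 with Lgals1 to 0.37 with Vim. Its negative values therefore rest on the 3 gates. Among 5520 genes, those most like S100a4 were Bola2, S100a6 and Ftsj3 (0.90 to 0.91). Those most like S100a6 were Tcof1, Ly6c2 and Snhg20 (0.93), and like S100a10 they were Itgal, Adss and Psmb3 (0.88 to 0.90). S100a11 was closest to Cd28, Cntrl and Gpr174 (0.92 to 0.94), and Lgals1 to Tomm7, Eif5b and Xrn2 (0.95 to 0.96). Lgals3 was closest to Cd163l1, Mbd2 and Prkaa1 (0.88 to 0.91), and Vim to Psmb8, Cmah and Psmc5 (0.87 to 0.90). With a pseudocount of 1 in place of 10, the nearest 3 kept all 3 genes for S100a10 and Lgals1, 2 for S100a4, Lgals3 and Vim, and 1 for S100a6 and S100a11. Without the 3 intestinal gates, none of the nearest 3 was kept for any of the 7 genes, so these names rest on those gates as well.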

How the data were processed

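The authors deposited raw UMI counts per gene and cell, made with BD Rhapsody libraries per the labels. CASAVA 1.8, UMI-tools, Seurat and the build mm10 appear in the submitters' processing notes, without roles. Aligner and cell calling were not given in the sources used here. Gene names for wild-type kidney were taken from the other libraries, whose lists were identical (r = 0.992 across genes with the PD-1 KO-labelled kidney, 0.21 with genes shifted by 1 place). Library totals were 8717372 to 16466027 UMIs.

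Cells with at least 500 UMIs, 250 genes and at most 20% mitochondrial UMIs were kept (95.0 to 99.3%). No doublet caller was run, and leaving out cells above the 98th percentile of UMIs was an alternative. T cells had at least 2 UMIs of Cd3d, Cd3e and Cd3g. ILCs had none, at least 2 UMIs of their group's genes, and 2 times as many as of each other group. B, epithelial, myeloid or stromal sums of 3 or more excluded a cell. Group 1 cells were split into NK cells and ILC1s by further genes. B cells had at least 4 UMIs of Cd79a, Cd79b and Ms4a1 and no CD3 UMI, and epithelium at least 5 of Epcam, Krt8, Krt18 and Cldn7 with no CD3 and no Ptprc UMI.

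UMIs were summed per class and library and divided by the class total (CPM), with exact Poisson intervals. Shares have exact Clopper-Pearson intervals, and ratios exact conditional binomial intervals. UMIs of one cell are not independent of each other, so the intervals are a lower limit of the error. Ratios were read over all features whose UMIs summed to 100 or more over the pair and whose larger level was 50 CPM or more, and 1.5-fold was the limit named. The ratio function was tested on simulated data. Alternatives used other gates, clusters, scalings (edgeR 4.0.16 TMM factors, median of ratios) and filters; clusters came from scanpy 1.11.5. The genes named were the 7, up to 4 of each list with the largest ratio per comparison, the 3 most like each of the 7, and markers. The 7 genes and the lists were chosen with earlier results of these data known. Some planned splits of the T gate and single genes are not reported here. Of 31253 features, 31107 had their identifier in GENCODE M21.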

Additional observations from a re-analysis of the deposited data

Results flagged for a closer look

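S100a10 differed between the kidney libraries in opposite directions in different cell classes. Its log2 ratio, PD-1 KO-labelled day 3 over wild-type day 14, was 0.28 in ILC1s, -0.60 in T cells and -0.33 in ILC2s, and none of the 3 intervals included 0. The difference between classes was not tested, since each group was 1 library. In the alternatives run, the ratio stayed between 0.21 and 0.36 in ILC1s, between -0.66 and -0.37 in T cells and between -0.43 and -0.27 in ILC2s.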

How the results depend on the processing

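Depth limits what can be said of Lgals3 in the innate kidney classes, of S100a4 in NK cells and of the kidney ILC3 gate. No paired analysis was possible because each group was 1 library and no test was made. The number of the 7 genes past 1.5-fold changed as follows. In kidney T cells, the count lower was 0 with median-of-ratios size factors and with TMM factors, which moved the ratios by less than 0.05 on the log2 scale, and the counts were 2 higher and 0 lower in CD8 cells and 3 higher and 0 lower in CD4 cells. In kidney ILC1s without a Trac UMI, 1 was higher. In intestinal ILC3s, 1 was lower with no CPM filter and with no filter at all, and 1 was higher in cells without Fabp1, Fabp2 or Apoa1 UMIs. No share over all features was taken for these settings, so these counts are not read as results about the 7 genes. In CD8 and CD4 cells, the counts of features past 1.5-fold stayed within 1.5 times those of the whole T gate. Those were 176 higher and 297 lower. The features past 1.5-fold moved with the filter. With 100 UMIs and no CPM filter they were 287 higher and 116 lower in intestinal ILC3s and 518 higher and 780 lower in kidney T cells. With no filter they were 2911 and 2531 in intestinal ILC3s, 3979 and 3789 in T cells, 2964 and 2396 in ILC1s, 2803 and 2690 in NK cells, and 3700 and 2332 in ILC2s. In intestinal ILC3s without Fabp1, Fabp2 or Apoa1 UMIs they were 95 higher and 72 lower, and in ILC2s without a Trac UMI 118 were higher. Fewer cells were compared in these subsets, and the cause was not tested otherwise. Of the 70 levels, 26 moved beyond their counting interval when clusters made without the 7 genes replaced the gates, and 2 of the 3 ILC1 clusters had T markers among their leading genes. S100a4 kept its direction in all kidney classes under each alternative run, with log2 ratios of 0.81 to 1.22 in T cells, 0.54 to 0.84 in ILC1s, 1.11 to 1.5 in NK cells and 1.10 to 1.22 in ILC2s.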

Other observations

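Gut epithelial cells, which take no part in the comparisons, carried the 7 genes in another pattern than the lymphocytes. In 64 sham and 193 UUO cells, Lgals3 was at 560 [484, 644] and 863 CPM [812, 917], and S100a10 at 715 [629, 810] and 651 CPM [606, 698]. S100a6 was at 216 [170, 271] and 79 CPM [64, 97]. S100a4 had 8 and 21 UMIs and Lgals1 had 6 in each. Lgals3 was thus higher and S100a6 lower in the UUO library, and the number of epithelial cells and their makeup differed between these libraries as well.

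Kidney B cells carried Vim at 424 CPM [303, 577] in wild-type and 1014 CPM [829, 1229] in PD-1 KO-labelled kidney, from 40 and 104 UMIs in 66 and 55 cells. The cells of the intestinal T gate held Lgals3 at 195 and 271 CPM, with 0 and 2 Cd5 UMIs, and S100a4 at 4 and 2 UMIs and S100a6 at 1 UMI in each.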
